A study of Rattus norvegicus with 9 samples.

Results

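Cytosolic ribosomal proteins make up, with ribosomal RNA, the machine that translates mRNA, and 48 of the 14217 genes measured here encode one of them or a close relative. They were chosen by name: a probe set had to name a single gene in the annotation of the array, with a symbol of the Rpl or Rps type or Rplp0 or Rpsa, and kinases of ribosomal protein Rps6 were left out. The 48 genes, 33 of the large and 15 of the small subunit, were measured by 55 probe sets. Rplp1 and other ribosomal protein genes that share their probe sets with copies or pseudogenes are given separately. The RNA came from dendrites cut from untreated pyramidal neurons of the hippocampus of Sprague-Dawley rats, taken at embryonic day 19 and cultured for 14 days. Each of 9 arrays held the amplified RNA of 1 pool of 100, 200 or 400 dendrites, with 3 biological replicates per pool size, and a pool mixed processes of many cells. Axons could not be told from dendrites by eye, so that a pool may contain some axonal RNA. Values are log2 signals, so a difference of 1 is a doubling of signal, and they are given as the mean ± SD of 9 arrays unless said otherwise.

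A ribosome joins a small subunit, which reads the mRNA, to a large subunit, which makes the peptide bond, and mature subunits hold about equal numbers of each of their proteins. Ribosomes and many mRNAs are present in dendrites, where proteins can be made close to synapses. Most vertebrate ribosomal protein mRNAs start with a tract of pyrimidines at the 5′ end, by which the mTOR pathway controls their translation as a group. Ribosomal proteins are usually built into subunits in the nucleolus, so the presence of their mRNAs in neuronal processes has drawn interest in its own right.

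The tract was looked for at the annotated gene starts, because it is the sequence feature that ribosomal protein genes are best known to share. In RefSeq promoters of the rat assembly GRCr8, 41 of the 48 genes had a match, and 30 of these (73.2%) had an unbroken run of at least 6 C or T bases on the sense strand that overlapped the 10 bases on either side of the annotated start. The same search found a run in 26.5% of 11700 genes of the array. The following 30-base windows, 20 bases before the start and 10 from it on, belong to genes that span the range of signals, in order from high to low. Capitals mark the longest such run, which may go on beyond the window, and windows without capitals have none.
Rpl41, chr7:1563488-1563517, minus strand: gaaggggcggctcggaagtgacgacaccaa
Rps28, chr7:15311324-15311353, minus strand: aaatggcatcccctgctcacgtgaCTCCTC
Rpl6, chr12:41011681-41011710, minus strand: ttgtgtatttttacatcactagatggcggg
Rps23, chr2:23814497-23814526, plus strand: ccttgtgggtccttcctgCCTCTCTTCTCT
Rps16, chr1:92770638-92770667, plus strand: cagaccctggaaaatcggtcggggtggccc
Rpl27a, chr1:172974553-172974582, plus strand: cctcgcgagacttggtgggCTCCTCCCTCT
Rpl35, chr3:43165912-43165941, minus strand: ggccccgCCCCTTCCTCTTTCTCTCgaacc
Rpl34, chr2:221962274-221962303, minus strand: gcccgCCCCTTCCTTTTCCTCTTCCgggga
Rpl26, chr10:54109672-54109701, plus strand: gagatctcgtgtcaacttacagaaccggaa
Rps24, chr16:96497-96526, plus strand: ggcagtgagcggTCCTCTTTTCCTCCTTTa
Rpl19, chr10:83519044-83519073, plus strand: gagcccgcgaccagcaagCTCTTTCCTTTC
Rpl28, chr1:78083523-78083552, minus strand: tgtcgccccgcccctagtgTCTTTCTTTCC
Rps15, chr7:10068106-10068135, minus strand: gcagccgctgacaccgCTTCCTTTTCCCag
Rps4y2, chr4:183000893-183000922, plus strand: attgcgcgcgcagCTCTCCTCactcgcttg
A run was found in 19 of 28 large subunit genes and in 11 of 13 small subunit genes. Of the genes printed, Rpl41, Rpl6 and Rps16 had high signals and no run, whereas Rps15 and Rps4y2 had a run and low signals. The median gene with a run stood at the 83.4 percentile of signal and the median of the 11 genes without one at the 76.8 percentile. Over the 11700 genes of the array the order was the other way, at 49.2 with a run and 50.1 without. These values were not tested against each other. A match in these letters is a description of the annotated start, and transcript starts were not measured.

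The signal of these genes was high as a group and spread over nearly the whole range of the arrays. A gene was ranked among all genes on each array, and its median percentile over the 9 arrays is given. This orders signals and not amounts of RNA, since probes differ in how strongly they bind. The median of the 48 genes was 83.4, with a range of 7.53 to 99.8. Above the 95th percentile were 16 genes (33.3%), where 4.50% of all genes were. 9 of the 16 exceeded the 95th percentile in all 9 arrays, and 21 genes did so in at least 1 array. Below the 50th percentile were 11 genes. The 73 genes for proteins of the mitochondrial ribosome, which translates the mitochondrial genome, had a median percentile of 58.2, and 2 of them were above the 95th.

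**Figure D1:**
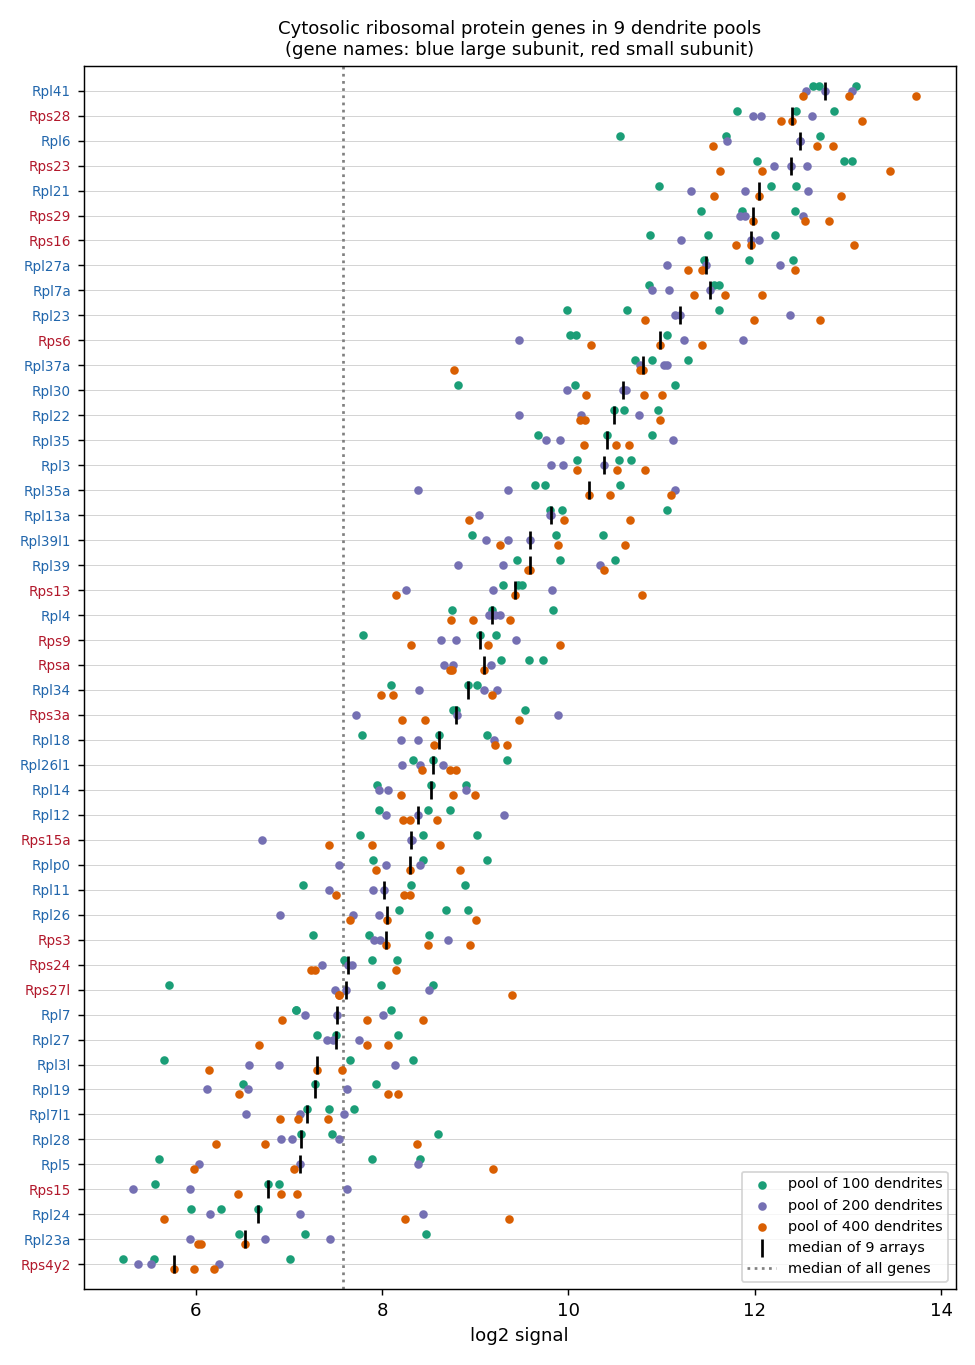
Log2 signal of the 48 ribosomal protein genes (rows, from highest to lowest median percentile) in each of 9 arrays, coloured by pool size, with black ticks for the median of 9 arrays and a dotted line for the median of all genes. The genes run from Rpl41 at 12.89 ± 0.38 to Rps4y2 at 5.88 ± 0.55 (SD, n = 9), and the colours mix in nearly every row.

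Of the large subunit, Rpl41, the smallest and most basic of the ribosomal proteins, gave 12.63, 12.69 and 13.09 in pools of 100, 12.55, 12.75 and 13.04 in pools of 200 and 12.52, 13.73 and 13.01 in pools of 400 dendrites. Every array had it above the 99th percentile, and its highest value, in replicate 2 of the 400-dendrite pools, stood apart from the others. Rpl6 followed at 10.55, 12.70 and 11.69 in pools of 100, 11.70, 12.48 and 12.48 in pools of 200 and 11.55, 12.67 and 12.84 in pools of 400 dendrites, with replicate 1 of the 100-dendrite pools lowest. Rpl21 averaged 11.99 ± 0.63, Rpl27a 11.75 ± 0.52, Rpl7a 11.40 ± 0.40 and Rpl23 11.38 ± 0.87. Rpl3, whose protein reaches into the peptidyl transferase centre, stood at 10.32 ± 0.35. This is the median of 2 probe sets, whose own SDs were larger, at 0.52 and 0.66. Rpl35, a protein of the exit side of the peptide tunnel, stood at 10.35 ± 0.51.

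Of the small subunit, the 3 highest were Rps28 at 12.40 ± 0.43, Rps23, a protein of the decoding centre, at 12.48 ± 0.58, and Rps29 at 12.14 ± 0.44. Rps23 gave 12.03, 13.04 and 12.95 in pools of 100, 12.20, 12.56 and 12.39 in pools of 200 and 11.63, 13.45 and 12.08 in pools of 400 dendrites. Its highest and lowest arrays were both pools of 400 dendrites. Rps6, which is phosphorylated by kinases downstream of mTOR and whose phosphorylation is widely read as a sign of neuronal activity, gave 10.08, 10.01 and 11.05 in pools of 100, 11.24, 11.87 and 9.47 in pools of 200 and 11.43, 10.99 and 10.24 in pools of 400 dendrites. It was above the 95th percentile in 5 of 9 arrays, and each pool size had both high and low arrays. Rpsa, which lies on the surface of the small subunit and is also known as a laminin receptor precursor, averaged 9.08 ± 0.39 (percentile 84.4). Rps3, a protein of the mRNA entry channel, averaged 8.19 ± 0.52 (percentile 62.5).

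The lowest signals came from both subunits. Rps4y2, a relative of the gene for small subunit protein Rps4x, gave 5.22, 5.55 and 7.01 in pools of 100, 6.25, 5.39 and 5.52 in pools of 200 and 5.98, 6.20 and 5.77 in pools of 400 dendrites and was the lowest of all at percentile 7.53. Rps15 averaged 6.51 ± 0.76 (percentile 28.2). Of the large subunit, Rpl23a, a docking site for factors at the tunnel exit, gave 8.47, 6.46 and 7.17 in pools of 100, 7.44, 5.94 and 6.75 in pools of 200 and 6.53, 6.06 and 6.03 in pools of 400 dendrites, with replicate 1 of the 100-dendrite pools highest. Rpl24, a protein at the interface of the subunits, gave 6.67, 6.27 and 5.95 in pools of 100, 6.16, 8.44 and 7.12 in pools of 200 and 5.66, 8.24 and 9.36 in pools of 400 dendrites. Its lowest and highest arrays were again both pools of 400 dendrites, and it spanned 13.0-fold in signal.

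Rpl5 and Rpl11 bind each other and a small ribosomal RNA before they join the large subunit. Rpl5 averaged 7.30 ± 1.26 and lay between 5.61 and 9.19, and Rpl11 averaged 7.97 ± 0.54. Rplp0, the base of the stalk that recruits translation factors, averaged 8.28 ± 0.49 (percentile 69.3).

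The spread between arrays also differed from gene to gene. The median SD of the 48 genes was 0.56 and that of all genes 0.55. The SD was largest for Rpl24 (1.29), Rpl5 (1.26), Rps27l (1.02) and Rpl3l (0.90), and smallest for Rpl4, Rpl26l1, Rps24 and Rpl3, at 0.33 to 0.35. Rps24 and Rpl3 are each given by the median of 2 probe sets, which varied more on their own. Their SDs were 0.46 and 0.86 for Rps24 and 0.52 and 0.66 for Rpl3. The 11 genes below the 50th percentile had a median SD of 0.76, and the 16 above the 95th one of 0.55, against 0.45 for all genes above the 95th percentile.

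Of 4 pairs in which both a gene and its close relative were measured, the standard gene was higher in every array only for Rpl3. Rpl3l, a form of Rpl3 known from striated muscle, gave 5.66, 7.65 and 8.33 in pools of 100, 6.57, 6.90 and 8.14 in pools of 200 and 7.57, 7.30 and 6.14 in pools of 400 dendrites, below Rpl3 in 9 of 9 arrays. Rpl7 was above Rpl7l1 in 6 of 9 arrays, Rpl26 above Rpl26l1 in 2 and Rpl39 above Rpl39l1 in 3. The means of Rpl39, a protein in the wall of the peptide tunnel, and Rpl39l1 were 9.76 ± 0.56 and 9.67 ± 0.56. Rps4x, Rps27 and Rpl22l1 were measured only by probe sets that name several genes and are not among these pairs. Rps4x lay between 8.23 and 9.31, and Rps4y2 reached at most 7.01. Rpl22 was at least 9.47, and Rpl22l1 lay between 5.40 and 9.18. Rps27, at 8.09 to 9.25, overlapped Rps27l, at 5.71 to 9.40. These orders are of signals from different probes.

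The choice of probe set moved several of these levels by more than the spread between arrays. Of the 6 genes with more than 1 probe set, the lowest and highest probe set of Rpsa averaged 8.51 and 11.24, those of Rpl7 6.29 and 8.86, those of Rps24 6.63 and 8.70, and those of Rpl3 9.60 and 11.04. The other 42 genes had 1 probe set each, and this spread between probe sets is not known for them. A further 36 probe sets named a ribosomal protein gene together with copies, pseudogenes or another gene. Their median percentile among all probe sets was 71.4, against 81.0 for the 55 that named 1 gene. Rps2, at 12.21 ± 0.16 in its higher probe set, Rps21 at 12.05 ± 0.47 and Rps7 at 10.63 ± 0.33 were among the highest of them, and Rpl17 at 6.27 ± 0.96 and Rpl36 at 6.31 ± 0.60 among the lowest. The lower probe set of Rps2 was at 7.91 ± 0.77. Rplp1, a stalk protein, was at 9.19 ± 0.38 and Rps4x at 8.88 ± 0.31. Rps13 was at 11.85 ± 0.44 with copies and 9.32 ± 0.79 in the probe set that named it alone.

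**Figure D2:**
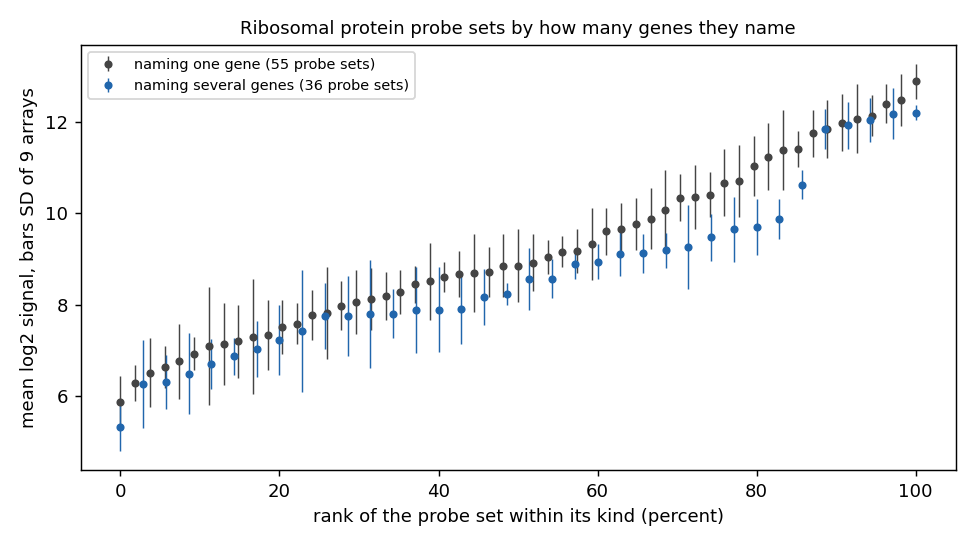
Mean log2 signal of each ribosomal protein probe set (points, bars are the SD of 9 arrays), ranked within the 55 that name 1 gene and the 36 that name several genes. Both kinds run from below 6.5 to above 12, with medians of 8.86 and 8.40.

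The large and the small subunit had similar levels, and their difference depended on how it was taken. The median large subunit gene stood at the 82.5 percentile and the median small subunit gene at 84.4, and 11 of 33 and 5 of 15 genes (33.3% each) were above the 95th percentile. The median of the large minus that of the small subunit genes was -0.50, -0.18 and -0.10 in pools of 100, 0.07, 0.13 and 0.01 in pools of 200 and 0.04, -0.18 and -0.00 in pools of 400 dendrites. Its mean was -0.08 ± 0.19 (SD, n = 9), with both signs among the arrays. The mean of the large minus that of the small subunit genes was -0.09 ± 0.08 (SD, n = 9) and below 0 in 8 of 9 arrays. With only genes above the median mean signal the difference of medians was 0.56. These differences are of signals from different probes and were not tested.

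From array to array many of the 48 genes moved in the same direction. Each gene was set against its own median over the 9 arrays, and the median deviation of the 48 genes was -0.01, 0.00 and 0.35 in pools of 100, 0.10, -0.26 and -0.26 in pools of 200 and -0.08, 0.48 and -0.11 in pools of 400 dendrites. In replicate 2 of the 400-dendrite pools 39 of 48 genes exceeded their own median, in replicate 3 of the 100-dendrite pools 36, and in replicate 2 of the 200-dendrite pools 8. The highest value of a gene fell in replicate 2 of the 400-dendrite pools for 17 of the 48 genes (35.4%), where 10.4% of all genes had theirs. Among the 16 genes above the 95th percentile it was 10, Rpl41, Rps28, Rps23, Rpl21, Rps29, Rps16, Rpl27a, Rpl7a, Rpl23 and Rpl22, or 62.5%, against 16.4% of all genes above that percentile. The lowest value of 7 of these 16 genes (43.8%, against 18.1%) fell in replicate 1 of the 100-dendrite pools. Both subunits took part, with deviations of 0.46 and 0.51 for large and small subunit genes in replicate 2 of the 400-dendrite pools.

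**Figure D3:**
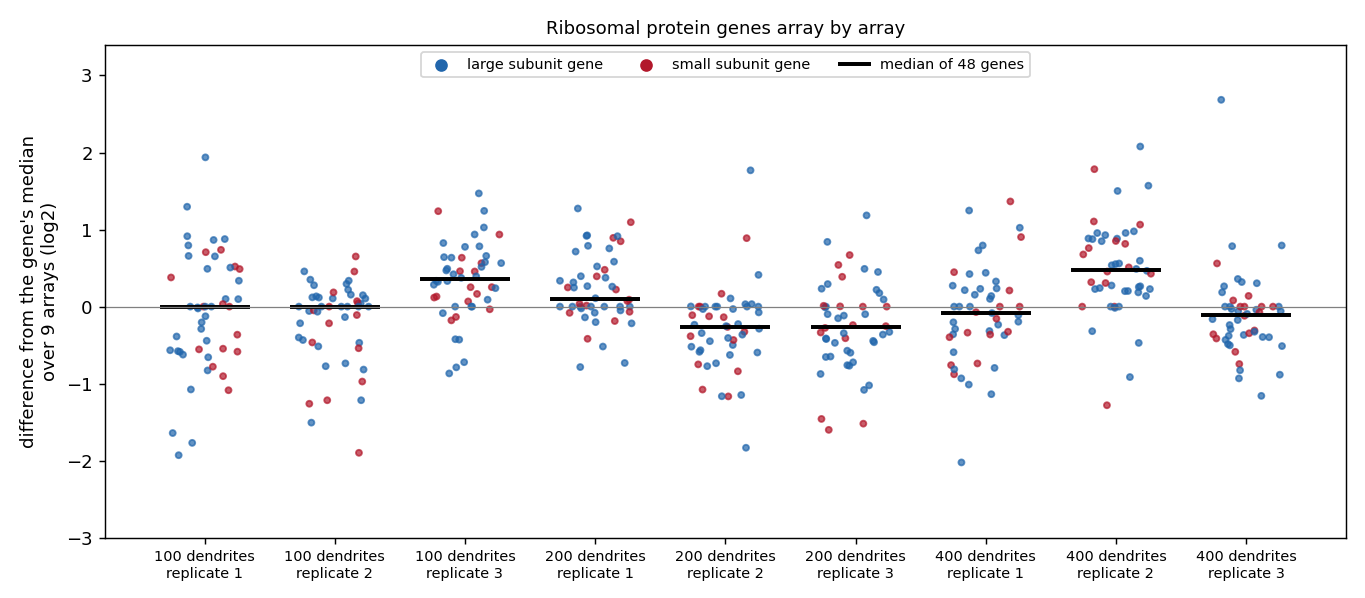
Deviation of each of the 48 genes from its own 9-array median, in log2 units, by array, with the median of the 48 genes as a bar and the subunits in colour. Replicate 2 of the 400-dendrite pools and replicate 3 of the 100-dendrite pools lie highest, with medians of 0.48 and 0.35, and replicates 2 and 3 of the 200-dendrite pools lowest, both at -0.26.

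The 36 probe sets that name several genes had no part in the choice of the 48 and followed this order in part. Among the genes they name are 3 of the 48, measured there by other probe sets. Their median deviation was 0.27 in replicate 2 of the 400-dendrite pools, where 14 of the 36 had their highest value, and 0.18 in replicate 3 of the 100-dendrite pools. It was also high, at 0.29, in replicate 1 of the 100-dendrite pools, where the 48 genes stood at -0.01. The low end differed. In replicates 2 and 3 of the 200-dendrite pools the 36 probe sets were at -0.00 and -0.06, where the 48 genes stood at -0.26. They were lowest, at -0.28, in replicate 3 of the 400-dendrite pools, where the 48 genes stood at -0.11. Mitochondrial ribosomal protein genes deviated by 0.19 in replicate 2 of the 400-dendrite pools and by -0.06 to 0.00 elsewhere.

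Some lists of markers of other cell types also differed between these arrays. In replicate 2 of the 400-dendrite pools, however, oligodendrocyte, microglia, endothelial and excitatory neuron markers deviated by 0.00, -0.03, 0.06 and -0.04. General neuron markers were at -0.19 there. In replicate 3 of the 100-dendrite pools the same lists were at 0.21, 0.16, 0.00, 0.00 and -0.36, in the same order. Of 8 astrocyte markers, 7 exceeded their own median in replicate 2 of the 400-dendrite pools and 6 in replicate 3 of the 100-dendrite pools, with median deviations of 0.42 and 0.85. They were at -0.26 and -0.89 in replicates 2 and 3 of the 200-dendrite pools, and at -0.77 in replicate 1 of the 400-dendrite pools, where the 48 genes stood at -0.08. The mean level of the astrocyte list ran from 8.01 to 8.87 in pools of 100, from 7.07 to 8.57 in pools of 200 and from 7.31 to 8.63 in pools of 400 dendrites. The fibroblast list deviated by 1.88 in replicate 2 of the 400-dendrite pools, with 5 of 6 markers above their own median, and by -0.72 in replicate 3 of the 100-dendrite pools, with 0 of 6. Its mean level ran from 6.63 to 7.55, from 7.14 to 7.81 and from 7.17 to 9.22 in pools of 100, 200 and 400 dendrites. The interneuron list deviated by 0.37 in replicate 2 of the 400-dendrite pools and by 0.30 in replicate 3 of the 100-dendrite pools. It was at -0.26 and -0.66 in replicates 2 and 3 of the 200-dendrite pools. It was also at -0.26 in replicate 1 of the 200-dendrite pools, where the 48 genes stood at 0.10, and at 0.21 in replicate 1 of the 400-dendrite pools. The arrays list no marker at 0, since every probe set has a signal. Over all arrays markers of excitatory neurons had a median percentile of 88.5 and those of astrocytes 79.5. Interneuron and microglia markers stood at 32.0 and 27.0. Single markers of these lists overlapped widely. They ran from 2.44 to 99.9 for excitatory neurons and from 10.03 to 90.05 for astrocytes. Those of interneurons ran from 11.6 to 86.7 and those of microglia from 10.7 to 75.6. The gap between the 3′ and 5′ probe sets of actin, which widens as RNA is truncated, was 2.41 in replicate 2 of the 400-dendrite pools, against -0.43 to 1.63 in the others. The same gap for Gapdh was 2.42 in that array, within the range of 0.84 to 2.99 of the others. Hybridization controls were high in replicate 1 of the 400-dendrite and of the 100-dendrite pools (13.23 and 13.69, against 11.41 to 12.14). The part of these measures in the deviation of the ribosomal protein genes was not tested.

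**Figure D4:**
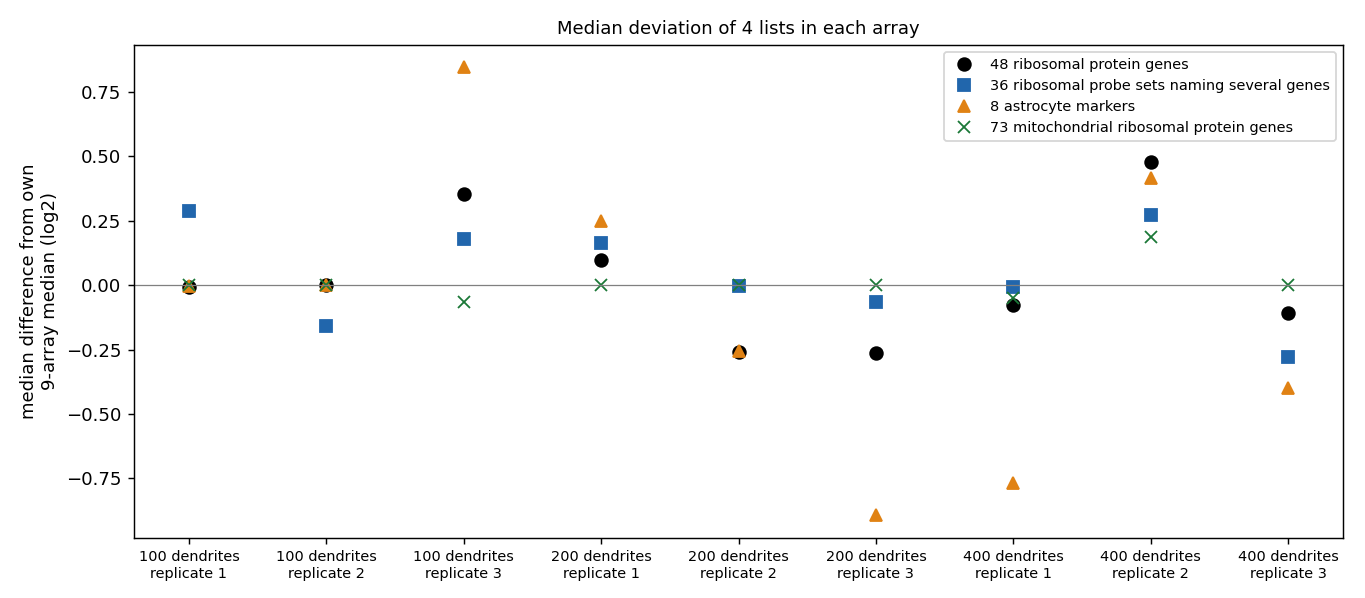
Median deviation from the 9-array median, in log2 units, of 4 lists in each array: the 48 ribosomal protein genes, the 36 ribosomal probe sets naming several genes, 8 astrocyte markers and 73 mitochondrial ribosomal protein genes. The ribosomal protein genes and the astrocyte markers are both above 0 in replicate 3 of the 100-dendrite, replicate 1 of the 200-dendrite and replicate 2 of the 400-dendrite pools.

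Pool size was compared to see whether more dendrites gave other levels of these genes. No ribosomal protein gene passed the test in any of the 3 comparisons. In limma with Benjamini-Hochberg adjustment over all genes at a threshold of 0.05, 0 of 14217 genes (0%) were called between any of the pool sizes. The comparisons share arrays and are therefore not independent of each other. With 3 arrays per pool size the median half-width of the 95% interval for 1 ribosomal protein gene was 1.03 log2 units before adjustment, and it ran from 0.74 for Rpsa to 1.97 for Rpl5. The adjusted test needs larger differences than these.

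Between 400 and 100 dendrites, 26 of the 48 genes were higher and 22 lower, with a median difference of 0.05, against 0.02 for all genes. 0 of the 48 had an unadjusted p under 0.05, where 2.41% of all genes did. The largest differences upward were 1.45 (SE 0.82, 95% interval -0.33 to 3.24) for Rpl24, 1.10 for Rpl23 and 0.75 for Rps16, and downward -1.16 (SE 0.54, 95% interval -2.33 to 0.01) for Rpl23a, -0.85 for Rpl37a and -0.67 for Rpsa. Rpl23 gave 10.82, 12.70 and 11.99 in pools of 400 dendrites, against 10.63, 9.98 and 11.61 in pools of 100. Rpl37a gave 8.77, 10.79 and 10.76 in pools of 400 dendrites, against 11.29, 10.90 and 10.71 in pools of 100, and its difference was -0.19 without replicate 1 of the 400-dendrite pools. The other large differences also depended on single arrays. In the 400-dendrite pools, Rpl24 differed by 0.65 without replicate 3 and by 2.50 without replicate 1, Rpl23 by 0.67 without replicate 2 and by 1.60 without replicate 1, and Rps16 by 0.35 without replicate 2. Rpl23a differed by -0.61 without replicate 1 of the 100-dendrite pools. Rpsa gave 8.73, 9.09 and 8.75 in pools of 400 dendrites, against 9.58, 9.28 and 9.73 in pools of 100. It was the only one of the 48 whose arrays did not overlap, on the lower side, where 2.58% of all genes did not. The highest probe set of Rpsa gave 9.29, 11.45 and 11.45 in pools of 400 dendrites, against 11.66, 11.44 and 11.35 in pools of 100. Its lowest probe set gave 7.57, 9.09 and 8.03, against 9.47, 8.95 and 9.73, so that on both of these probe sets the groups overlapped. None of the 48 lay apart on the higher side, where 3.67% of all genes did. All of these had an adjusted p = 0.999 in limma. The median difference was 0.24 for the small and -0.02 for the large subunit genes, and the difference between subunits was not tested. Without replicate 3 of the 100-dendrite pools the median difference of the 48 genes was 0.35, and without replicate 2 of the 400-dendrite pools it was -0.05.

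Between 200 and 100 dendrites, 15 genes were higher and 33 lower, with a median difference of -0.14, against 0.00 for all genes. Rpl26, a large subunit protein near the tunnel exit, was the only gene of the 48 with an unadjusted p under 0.05 (2.08%, where 3.03% of all genes had one), at -1.08 (SE 0.45, 95% interval -2.06 to -0.09). It gave 7.97, 6.90 and 7.69 in pools of 200 dendrites, against 8.93, 8.18 and 8.68 in pools of 100. Rpl26 and Rpsa did not overlap between these groups, both on the lower side, where 3.75% of all genes did not. In pools of 200 dendrites the highest probe set of Rpsa gave 11.45, 11.53 and 11.54. It gave 11.66, 11.44 and 11.35 in pools of 100, so that on this probe set the groups overlapped. None of the 48 lay apart on the higher side, where 4.05% of all genes did. Rpl13a differed by -0.71, Rpl24 by 0.94 and Rpl23 by 0.83. Without 1 array these were -0.31 for Rpl13a (replicate 3 of the 100-dendrite pools left out), 0.34 for Rpl24 (replicate 2 of the 200-dendrite pools) and 0.43 for Rpl23 (replicate 3 of the 200-dendrite pools). The median difference was -0.37 without replicate 1 of the 200-dendrite pools and -0.04 without replicate 2, and without replicate 3 of the 100-dendrite pools 23 of 48 genes were higher.

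Between 400 and 200 dendrites, 37 of the 48 genes were higher (77.1%, where 51.1% of all genes were), with a median difference of 0.26, against 0.01 for all genes. This held for 25 of 33 large and 12 of 15 small subunit genes, and for 15 of the 16 above the 95th percentile, the exception being Rpl37a. None of these differences had an unadjusted p under 0.05, where 2.3% of all genes did, and none of the 48 lay apart, where 3.59% of all genes did on the higher and 3.18% on the lower side. Rpl35a differed most upward, at 0.96 (SE 0.61, 95% interval -0.37 to 2.30), and gave 10.45, 11.10 and 10.22 in pools of 400 dendrites, against 11.15, 8.39 and 9.35 in pools of 200. Its difference was 0.35 without replicate 2 of the 200-dendrite pools and 1.72 without replicate 1. Rpl19 differed by 0.80, or 0.48 without replicate 2 of the 200-dendrite pools, and Rpl37a and Rpl23a were lowest, at -0.84 and -0.50, with -0.17 for Rpl37a without replicate 1 of the 400-dendrite pools and -0.14 for Rpl23a without replicate 1 of the 200-dendrite pools. The excess rested on 1 array: without replicate 2 of the 400-dendrite pools 24 of 48 genes were higher, with a median difference of 0.01. Of the probe sets naming several genes, 23 of 36 were higher between the same groups, with a median of 0.08.

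**Figure D5:**
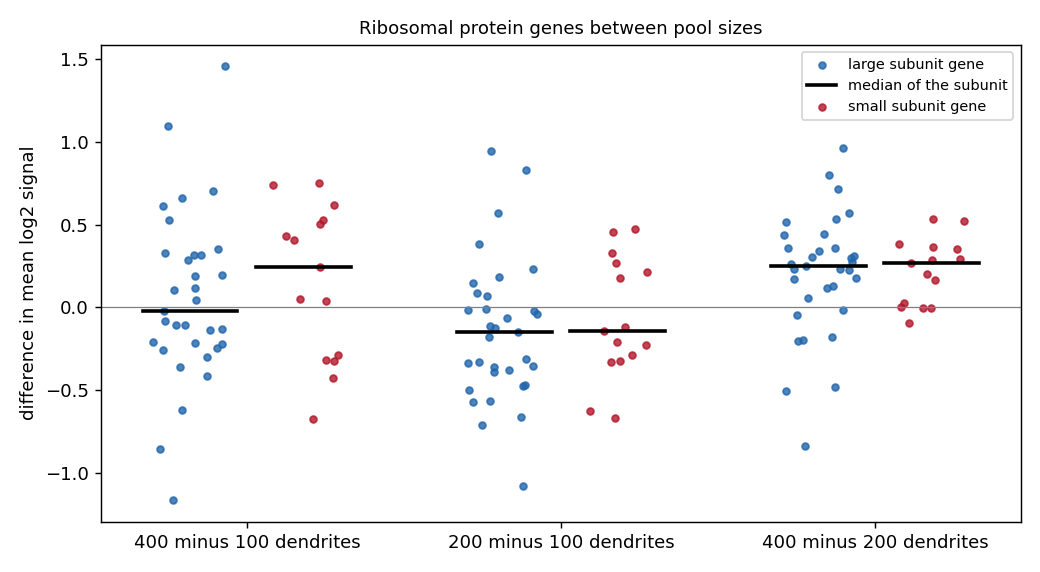
Difference in mean log2 signal between pool sizes for each ribosomal protein gene, for large and small subunit genes, with the median of each subunit as a bar. Differences run from -1.16 to 1.45 between 400 and 100 dendrites, and none passed the test.

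Genes that work with the ribosome also spanned a wide range of signals. Of 10 listed partners and ubiquitin or ribosome fusions, 5 were measured, with a median percentile of 83.5. The signal recognition particle gene Srp14 (9.96 ± 1.30) and the translocon gene Sec61b (9.71 ± 1.16) were the highest, next to the ribosome-bound scaffold Rack1 (9.11 ± 1.01). Srp9 and Naca, a chaperone subunit at the tunnel exit, were low, at percentiles 31.7 and 18.2. All 5 were higher with 400 than with 100 dendrites, with a median difference of 0.71, but 0 passed the test. By replicate, their median deviation was 0.21, -0.31 and 0.26 in pools of 100 and -0.04, -0.61 and 0.76 in pools of 200 dendrites. In pools of 400 dendrites it was 0.00, 1.06 and 0.47. The ribosomal protein genes stood at 0.48 in the array at 1.06 and at -0.11 in the array at 0.47. They stood at -0.26 both in the array at -0.61 and in the array at 0.76.

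Of 15 other mRNAs known to carry a terminal pyrimidine tract, 12 were measured, with a median percentile of 66.9. The elongation factor subunits Eef1d and Eef1b2 stood at percentiles 93.2 and 92.5, and the initiation factor subunit Eif3h and the RNA-binding protein gene Hnrnpa1 at 32.8 and 51.6. Of 24 genes for ribosome assembly, all were measured, with a median percentile of 53.3. Nop10 of the pseudouridylation complex (percentile 98.9) and Rrp9 (94.0) were highest, and the nucleolar methyltransferase Fbl (0.83) and the ribosomal DNA transcription factor Ubtf (20.5) lowest. None of either list was called in any comparison.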

How the data were processed

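RNA of 9 dendrite pools was amplified in 2 rounds and a final kit amplification, labelled with biotin and hybridised to Affymetrix rat arrays. The deposited values are log2 signals per probe set, which the authors made with RMA 2.0. RMA corrects background, normalises the arrays to 1 distribution and sums up the probes, so that a change in total RNA is removed. Array medians were 7.46 to 7.53. Of 31099 probe sets, 57 controls were set aside, and 20826 of the rest named 1 gene, which gave 14217 genes by the median of their probe sets. Without a low-signal filter, all 48 members were tested. Signals hold no counts, so the number of arrays limits the precision.

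Pool sizes were compared with limma 3.58.1 in R 4.3.3, 1 linear model of 9 arrays, two-sided, with Benjamini-Hochberg adjustment over all genes at 0.05, and the fit was tested on simulated data. The labels call the arrays biological replicates. Other normalisations, probe rules and variance settings, the replicate number as a block and leaving out arrays were alternatives. Members and gene lists were chosen with earlier results of these data known. Named genes were the highest and lowest by percentile, in all and per subunit, those of largest and smallest SD, those of largest difference, relatives, Rplp0, Rpsa, Rps6, the members whose probe sets differed most, and the extremes of other lists. Genes named outside this rule, such as Rpl5 with Rpl11, Rps3 and those with several-gene probe sets, were chosen after their values were seen. Python 3.11.15 and matplotlib 3.10.9 were used for ranks and figures. Marker lists of 8 cell types served as checks, with median percentiles of 83.1 for general neuron, 57.9 for oligodendrocyte, 52.6 for endothelial and 35.0 for fibroblast markers beside those in the report. Single markers of these ran from 63.3 to 93.3, 25.7 to 79.5, 11.2 to 99.8 and 5.24 to 80.0 in the same order.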

Additional observations from a re-analysis of the deposited data

Results flagged for a closer look

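3 of the 48 genes had 1 array that stood apart from the other 8 by Dixon's test at the 95% level, where chance gives about 1 in 20, or 2.4 of 48. Rpl37a was at 8.77 in replicate 1 of the 400-dendrite pools, and its next lowest array was at 10.71. Rpl30 was at 8.81 in replicate 1 of the 100-dendrite pools, with the next at 9.98. Rpl41 was at 13.73 in replicate 2 of the 400-dendrite pools, with the next highest at 13.09. The arrays of Rpl37a and Rpl30 are the pair with the highest hybridization controls.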

How the results depend on the processing

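No gene or probe set was called between pool sizes in any of the alternatives run. In the alternatives that tested all genes, an unadjusted p under 0.05 was found for 317 to 675 genes between 400 and 100 dendrites, 367 to 729 between 200 and 100, and 289 to 620 between 400 and 200. Testing each of 31042 probe sets on its own gave 687, 891 and 634 probe sets, and testing only the genes above the median mean gave 178, 187 and 133 genes, in the same order of comparisons. Of 260 values for single genes, 260 kept their direction and stayed above the threshold. This count says little about stability, because the genes were picked for their large differences. Several alternatives, such as the variance settings or leaving out an array of the third pool size, also cannot change a difference. Leaving out 1 array at a time gave median differences of the 48 genes of -0.045 to 0.348 between 400 and 100 dendrites, -0.370 to -0.037 between 200 and 100, and 0.0079 to 0.397 between 400 and 200. It gave a median percentile of 81.0 to 84.3 and a large minus small subunit difference of -0.11 to -0.03. With each gene given by its brightest probe set the median percentile was 76.8, and with only genes above the median mean the large minus small difference was 0.56. That filter removes the low genes of each subunit. With the probe sets that name several genes added, chosen after seeing the data, the median percentile was 80.2. Without the 2 arrays of highest hybridization controls, also chosen after seeing the data, 38 of 48 genes were higher between 400 and 200 dendrites, with a median of 0.29.

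Replicate numbers did not pair the arrays: same-numbered arrays correlated at -0.19 to 0.09 (median 0.02) after group means were removed. A fit with the replicate number as a block called 0 genes in each comparison, with 362, 437 and 336 genes at an unadjusted p under 0.05 between 400 and 100, 200 and 100, and 400 and 200 dendrites.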
